A study of Homo sapiens with 16 samples.

Results

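Eosinophil and mast cell granule genes were followed through RNA-seq libraries of t(8;21) acute myeloid leukaemia cells. The 10 genes were chosen by symbol: *PRG2*, *EPX*, *CLC*, *RNASE2*, *RNASE3*, *CPA3*, *TPSAB1*, *TPSB2*, *MS4A2* and *FCER1A*, out of 60357 genes listed for the 12 cell culture libraries. Kasumi-1 and SKNO-1 are leukaemia cell lines that carry the RUNX1/ETO fusion, and SKNO-1 medium held GM-CSF and more serum than Kasumi-1 medium. Each line was exposed for 24 h to lipid nanoparticles (LNPs) at 2 µg/ml and harvested on day 3. The LNPs carried either siRE-mod, a chemically modified siRNA against *RUNX1/ETO* (labelled as the knockdown genotype), or its mismatch control siMM-mod (labelled as wild type). There were 3 libraries for each line and siRNA, prepared from bulk RNA, and no source used here says that they were separate cultures, so a p-value below measures only the spread between these libraries. In bulk RNA, fewer cells of a type and less RNA per cell cannot be told apart.

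Granulocytes and mast cells store proteins made during their development in cytoplasmic granules. Eosinophil granules hold major basic protein, eosinophil peroxidase and a pair of ribonucleases, while mast cell granules hold tryptases and a carboxypeptidase bound to the proteoglycan serglycin. Genes of both kinds are known to be switched on in progenitors under GATA transcription factors, and the eosinophil genes also under C/EBP factors. Mast cells and basophils respond to IgE through a surface receptor of alpha, beta and gamma chains.

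*RUNX1T1*, the gene that gives the ETO part of the fusion transcript that the siRNA targets, did not part the libraries as their labels do, nor did *CD34*, a progenitor surface marker. All levels are CPM, counts scaled by library size, on TMM-normalized library sizes unless FPKM is named, and library totals ran from 60559466 to 147990959 reads with a median of 89160101. *CD34* stood at 117 to 421 CPM in 6 libraries and at 0.108 to 0.627 CPM in the other 6, and the libraries are therefore read in 4 sets of 3 as well as by label. With *CD34* high, *RUNX1T1* was high at 297 to 329 CPM in the libraries labelled SKNO-1 siMM-mod 1 and 2 and Kasumi-1 siMM-mod 1. It was low at 92.9 to 127 CPM in those labelled SKNO-1 siMM-mod 3, SKNO-1 siRE-mod 1 and Kasumi-1 siMM-mod 2. With *CD34* low, *RUNX1T1* was high at 159 to 165 CPM in the libraries labelled SKNO-1 siRE-mod 2, Kasumi-1 siMM-mod 3 and Kasumi-1 siRE-mod 2. It was low at 37.3 to 44.4 CPM in those labelled Kasumi-1 siRE-mod 1, SKNO-1 siRE-mod 3 and Kasumi-1 siRE-mod 3. *CD34* also differed between the *RUNX1T1*-high and *RUNX1T1*-low sets. It was 417 to 421 against 117 to 153 CPM where high, and 0.108 to 0.141 against 0.444 to 0.627 CPM where low. Each set mixes both line labels, and both *CD34*-high, *RUNX1T1*-low and *CD34*-low, *RUNX1T1*-high sets mix both siRNA labels as well. The sets were formed from measured values and are not groups of the study, so ranges and counts are given for them and no test. The myeloblast markers *CD33*, *ANPEP* and *MPO* were present in every library, at lowest 38.1, 54.9 and 1783 CPM. No pair of libraries agreed within counting noise. By the median chi-square of their counts per gene the closest were SKNO-1 siMM-mod 3 and SKNO-1 siRE-mod 1, with different siRNA labels, at 1.49. The next pair had 4.41. By the mean the closest were Kasumi-1 siRE-mod 1 and 3, at 26.2 against 72.5 for the SKNO-1 pair.

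**Figure D1:**
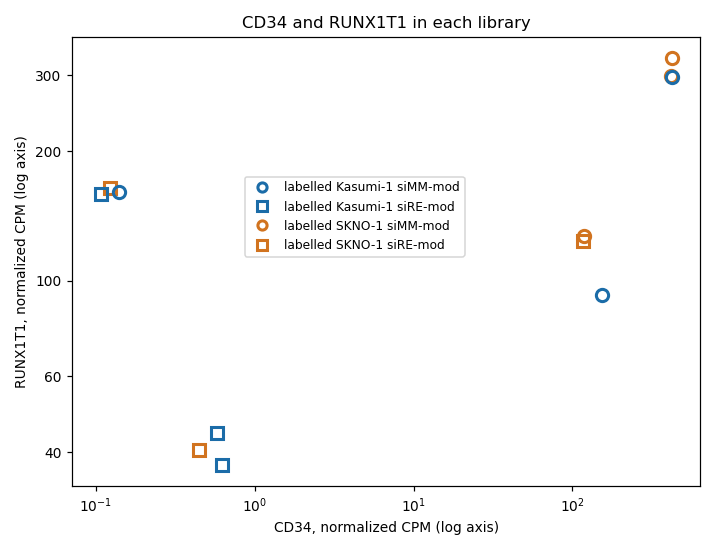
CD34 (x axis) and RUNX1T1 (y axis) in normalized CPM, both on log axes, with 1 point for each of the 12 libraries; colour gives the labelled line and shape the labelled siRNA. The points fall in 4 clumps of 3, with CD34 at 117 to 421 CPM on the right and 0.108 to 0.627 CPM on the left, and each clump holds both colours.

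The promoter sequences of the members are shown because GATA and RUNX factors are the regulators whose genes and fusion are measured here. The RefSeq table (GRCh38.p14) held promoters of 300 bases, from 250 before to 50 after the start site, for 6 members, *CLC*, *RNASE2*, *RNASE3*, *CPA3*, *MS4A2* and *FCER1A*. The letters AGATAA, the core bound by GATA factors, were searched on both strands and stood in 4 of the 6, against 10.3% of 35116 promoters. The RefSeq start lies 12622 bases inside the gene as the count tables place it for *FCER1A* and 403 bases inside it for *MS4A2*, and it is the tables' own start for *CLC* and *CPA3*. In the windows of 28 bases below the matched letters are in capitals, and TTATCT is AGATAA read on the other strand:
CPA3, 173 bases before the start, chr3:148865112-148865139 (+): ttgcaaaaggtAGATAAgtagcatgtgc
CPA3, 45 bases before the start, chr3:148865240-148865267 (+): gctgctcatcaAGATAAgggctgaggca
FCER1A, 122 bases before the start, chr1:159302203-159302230 (+): catcctgaataTTATCTctaaagaaaga
MS4A2, 54 bases before the start, chr11:60088599-60088626 (+): agccaagaaacTTATCTgtctggcaaat
CLC, 206 bases before the start, chr19:39738219-39738246 (-): ctccatcgtctTTATCTgtgcatttccc
CLC, 114 bases before the start, chr19:39738127-39738154 (-): ctccaaacaggTGTGGTtgtgactgagt

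The last of these is the only match among the members to TGTGGT, a core bound by RUNX factors, which stood in 13.1% of all promoters. AGGAAG, a core bound by ETS factors, stood in 1 member, again *CLC*, and in 33.6% of all promoters. *RNASE2* and *RNASE3* held none of the 3 in this window. The searched letters do not overlap one another, and a match describes the sequence and not binding.

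Summed over the 10 genes, the level was 34.1 to 38.9 CPM in the *CD34*-high, *RUNX1T1*-high libraries and 310 to 417 CPM in the *CD34*-high, *RUNX1T1*-low ones. It was 49.8 to 74.9 CPM in the *CD34*-low, *RUNX1T1*-high libraries and 402 to 470 CPM in the *CD34*-low, *RUNX1T1*-low ones. The sum was thus larger in all 6 *RUNX1T1*-low libraries than in any *RUNX1T1*-high one, while the genes that made it up differed with *CD34*. *PRG2* and *RNASE2* led it where *CD34* was high and *RUNX1T1* low, and *RNASE2*, *CPA3*, *PRG2* and *CLC* where both were low.

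**Figure D2:**
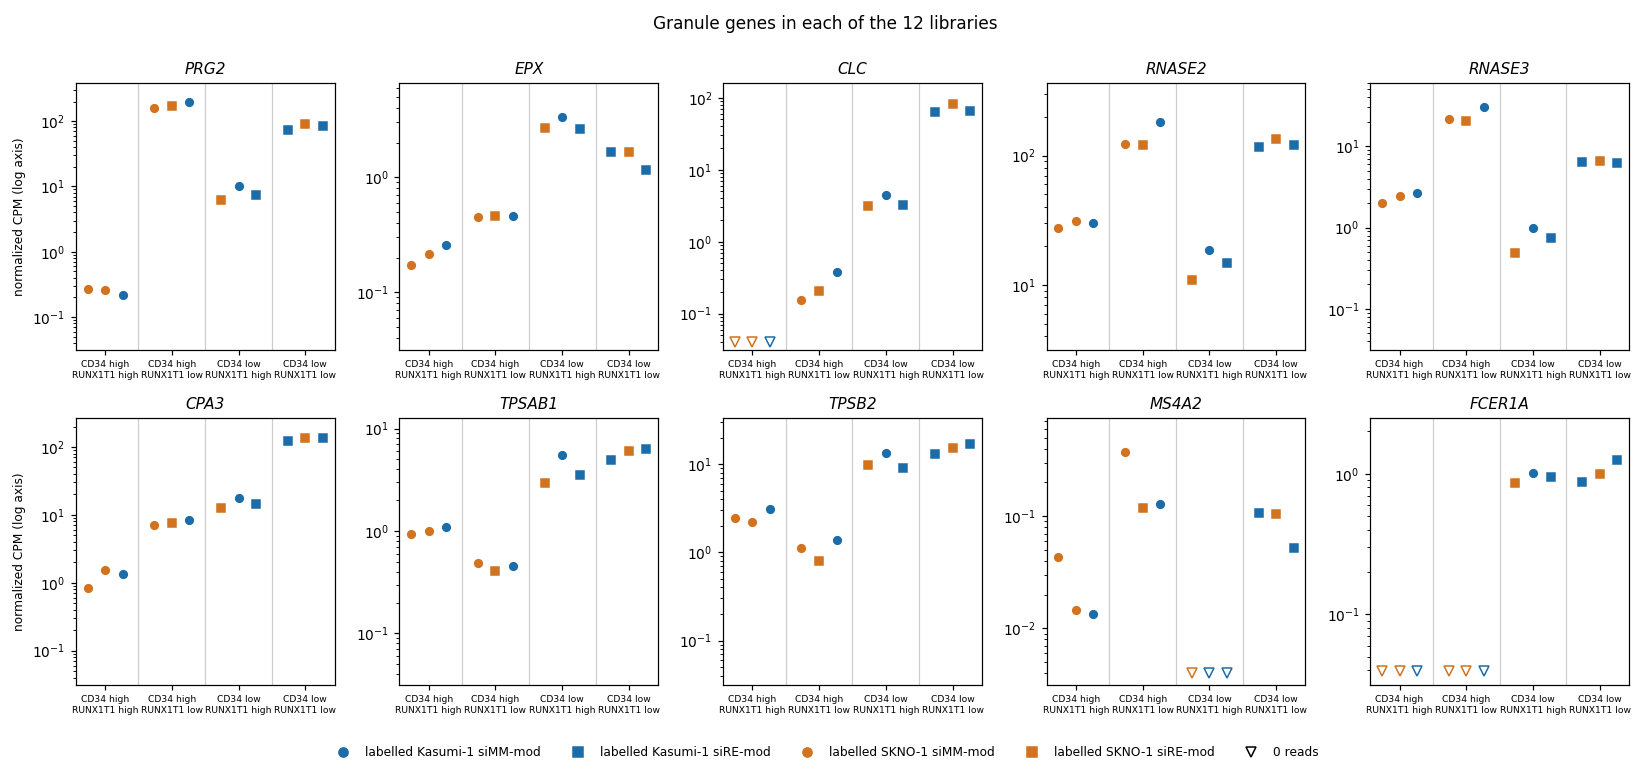
Normalized CPM (log axis, own scale for each gene) of the 10 granule genes in each of the 12 libraries, in the 4 sets along the x axis; colour gives the labelled line, shape the labelled siRNA and an open triangle 0 reads. PRG2 goes from 0.217 to 0.271 CPM in the first set to 156 to 194 CPM in the second, CLC and CPA3 are highest in the last set, and FCER1A has reads only in the 6 CD34-low libraries.

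*PRG2* (chromosome 11, 57386780 to 57390650, minus strand, GRCh38) encodes eosinophil major basic protein, the cationic protein of the eosinophil granule core. In the libraries labelled Kasumi-1 it stood at 0.217, 194 and 10.1 CPM with siMM-mod and at 74.4, 7.47 and 83.3 CPM with siRE-mod, in the order of replicates 1, 2 and 3. In those labelled SKNO-1 it stood at 0.271, 0.260 and 156 CPM with siMM-mod and at 169, 6.19 and 88.9 CPM with siRE-mod. The siMM-mod and siRE-mod libraries overlapped in both lines, and the siMM-mod libraries alone ran from 0.217 to 194 CPM and from 0.260 to 156 CPM. By set the 4 ranges were apart, with the *CD34*-high, *RUNX1T1*-low libraries on top. The lowest of these was 576 times the highest *CD34*-high, *RUNX1T1*-high library, where 16 to 19 reads were counted. In *CD34*-low libraries the same ratio of nearest libraries was 7.39. Another annotated gene, *AP000781.2*, shares 791 exonic bases (42.9%) with *PRG2* on the same strand and was given 0 to 26 reads per library. How reads on the shared bases were assigned is not known. The *PRG2* counts may therefore be too low, and so may its FPKM when set against other genes.

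*EPX* (chromosome 17, 58192726 to 58205174, plus strand) encodes eosinophil peroxidase and was a gene of low level throughout. In the libraries labelled Kasumi-1 it stood at 0.258, 0.459 and 3.32 CPM with siMM-mod and 1.66, 2.63 and 1.15 CPM with siRE-mod. The SKNO-1 labelled libraries stood at 0.171, 0.217 and 0.455 CPM with siMM-mod and 0.462, 2.71 and 1.64 CPM with siRE-mod. The labelled groups overlapped in Kasumi-1 and lay apart in SKNO-1, there by 0.455 against 0.462 CPM, or 29 against 31 reads. With *RUNX1T1*, the direction of *EPX* turned with *CD34*, without overlap of the libraries at either level. The *RUNX1T1*-low libraries were higher by 1.76 times at the nearest pair where *CD34* was high, and lower by 1.58 times where *CD34* was low. All 6 *CD34*-low libraries stood above the *CD34*-high ones, with 2.49 times between the nearest pair.

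*CLC* (chromosome 19, 39731255 to 39738029, minus strand) encodes galectin-10, the protein of Charcot-Leyden crystals of eosinophils and basophils. In the libraries labelled Kasumi-1 it stood at 0, 0.383 and 4.42 CPM with siMM-mod and 64.3, 3.24 and 64.7 CPM with siRE-mod. With the SKNO-1 label it stood at 0, 0 and 0.157 CPM with siMM-mod and 0.209, 3.18 and 80.8 CPM with siRE-mod. No read fell on *CLC* in the 3 *CD34*-high, *RUNX1T1*-high libraries, where a count of 0 allows up to 3 reads, or 0.0370 to 0.0402 CPM of the deposited totals. The *CD34*-high, *RUNX1T1*-low libraries had 10 to 30 reads, at least 3.62-fold higher when 3 counts per library are set in place of 0. In the *CD34*-low libraries the reads ran from 309 to 422 where *RUNX1T1* was high and from 6190 to 12388 where it was low, with 14.5 times between the nearest libraries. Between the *RUNX1T1*-low sets, *CLC* differed by 168 times at the nearest pair, higher with *CD34* low, whereas *PRG2* was lower there by 1.76 times.

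*RNASE2* (chromosome 14, 20955487 to 20956436, plus strand) encodes eosinophil-derived neurotoxin, and *RNASE3* (chromosome 14, 20891399 to 20892348, plus strand) encodes eosinophil cationic protein, both secreted ribonucleases of the eosinophil granule. *RNASE2* stood at 30.2, 183 and 18.6 CPM with siMM-mod and 116, 14.7 and 120 CPM with siRE-mod in the libraries labelled Kasumi-1. For SKNO-1 by label it stood at 27.4, 31.1 and 123 CPM with siMM-mod and 121, 10.9 and 135 CPM with siRE-mod. Every *RUNX1T1*-low library lay above every *RUNX1T1*-high one, by 3.89 times at the nearest pair with *CD34* high and 6.23 times with *CD34* low, and the *RUNX1T1*-low sets overlapped each other.

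*RNASE3* stood at 2.66, 30.1 and 0.986 CPM with siMM-mod and 6.48, 0.738 and 6.22 CPM with siRE-mod in the libraries labelled Kasumi-1. In those labelled SKNO-1 it stood at 1.99, 2.41 and 21.4 CPM with siMM-mod and 20.2, 0.494 and 6.53 CPM with siRE-mod. It too was higher in the *RUNX1T1*-low libraries, by 7.58 and 6.31 times at the nearest pairs with *CD34* high and low. Among members with 600 reads it was the one that stood lower with *CD34* low at either *RUNX1T1* level, by 2.01 times at the nearest pair where *RUNX1T1* was high and 3.09 times where it was low. The reference transcripts of both ribonucleases are 88.8% identical over the aligned bases and share none of their 75-base windows. The 6 other ribonucleases of the family on the list (*RNASE1*, *RNASE4*, *ANG*, *RNASE6*, *RNASE7* and *RNASE8*) each had fewer than 600 reads over the 12 libraries.

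*CPA3* (chromosome 3, 148865296 to 148897203, plus strand) encodes the carboxypeptidase of mast cell granules. In the libraries labelled Kasumi-1 it stood at 1.34, 8.38 and 17.7 CPM with siMM-mod and 121, 14.3 and 135 CPM with siRE-mod. The SKNO-1 labelled libraries stood at 0.843, 1.53 and 7.16 CPM with siMM-mod and 7.70, 12.7 and 135 CPM with siRE-mod. The labelled siRNA groups overlapped in Kasumi-1 and lay apart in SKNO-1, by 7.16 against 7.70 CPM. By set, *CPA3* was ordered the same way by both readings. The *RUNX1T1*-low libraries were higher by 4.68 times at the nearest pair with *CD34* high and by 6.81 times with *CD34* low, and the *CD34*-low libraries were higher by 8.30 times where *RUNX1T1* was high and by 14.4 times where it was low.

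*TPSAB1* (chromosome 16, 1240705 to 1242554, plus strand) and *TPSB2* (chromosome 16, 1227272 to 1230184, minus strand) encode the alpha and beta tryptases, the main serine proteases of mast cell granules. Their reference transcripts are 98.7% identical over 1165 aligned bases and share 65.1% of the 75-base windows of *TPSB2*, so how reads were divided between them is uncertain. *TPSB2* stood at 3.14, 1.39 and 13.2 CPM with siMM-mod and 13.0, 9.05 and 16.8 CPM with siRE-mod in the libraries labelled Kasumi-1. With the SKNO-1 label it stood at 2.43, 2.23 and 1.11 CPM with siMM-mod and 0.805, 9.86 and 15.3 CPM with siRE-mod. *TPSAB1* ran from 0.402 to 6.37 CPM and gave the same order of sets. The tryptases went with *CD34*. All 6 *CD34*-low libraries were higher, by 2.68 times for *TPSAB1* and 2.88 times for *TPSB2* at the nearest pair. With *CD34* high, the *RUNX1T1*-low libraries were lower, by 1.91 and 1.6 times, and with *CD34* low the sets overlapped for both genes. The medians also turned, from 0.461 and 0.458 times (*RUNX1T1* low over high) with *CD34* high to 1.71 and 1.55 times with *CD34* low.

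*FCER1A* (chromosome 1, 159289714 to 159308224, plus strand) and *MS4A2* (chromosome 11, 60088261 to 60098467, plus strand) encode the IgE-binding alpha chain and the signal-amplifying beta chain of the high-affinity IgE receptor. *FCER1A* had 93, 106, 124, 120, 84 and 152 reads in the *CD34*-low libraries labelled Kasumi-1 siMM-mod 3, Kasumi-1 siRE-mod 1, 2 and 3 and SKNO-1 siRE-mod 2 and 3, which is 0.864 to 1.25 CPM. It had 0 reads in all 6 *CD34*-high libraries, which allows up to 0.0326 to 0.0495 CPM of the deposited totals. The *CD34*-low libraries were thus at least 18.4-fold higher at the nearest pair, with 3 counts per library set in place of 0, and within *CD34* low the *RUNX1T1* sets overlapped. *MS4A2* had 81 reads over the 12 libraries. They were 1 to 3 per library with *CD34* and *RUNX1T1* high, 8 to 24 with *CD34* high and *RUNX1T1* low, 0 in the 3 *CD34*-low, *RUNX1T1*-high libraries and 5 to 16 in the *CD34*-low, *RUNX1T1*-low ones. At such counts no fold is given. *FCER1G*, the gamma chain that other Fc receptors also use, stood at 1.91 to 2.12, 4.42 to 8.02, 7.83 to 10.4 and 20.5 to 26.2 CPM in the 4 sets, in the order of the plot.

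Of the 10 members, 9 had 600 reads or more over the 12 libraries, the filter of the study's methods, and *MS4A2* did not. With *CD34* low, 6 members lay wholly above the *CD34*-high libraries (*EPX*, *CLC*, *CPA3*, *TPSAB1*, *TPSB2* and *FCER1A*) and none wholly below. The background was 17.5% of 15863 genes above and 15.6% below, but 4 of the 6 (*EPX*, *CLC*, *TPSAB1* and *FCER1A*) met the filter through their *CD34*-low libraries alone, with 142, 54, 309 and 0 reads over the *CD34*-high ones, and so nothing is read from this count. Within *CD34*-high libraries, 6 of the 9 lay above and 2 below with *RUNX1T1* low, against 18.1% and 20.1% of all genes. Those above included *EPX* and *CLC* and those below *TPSAB1*, which had fewer than 600 reads over these libraries, and *FCER1A* had none. Nothing is read from this count for that reason. Within *CD34*-low libraries, 5 lay above and 1 below, against 21.7% and 21.6%. Between the *RUNX1T1*-high sets, 7 lay above and 2 below with *CD34* low, against 31.8% and 28.8%. Between the *RUNX1T1*-low sets 6 lay above and 2 below, against 32.6% and 28.9%. Those above again included *EPX*, *CLC*, *TPSAB1* and *FCER1A* in both cases, so nothing is read from these 2 counts either. *PRG2*, *CLC*, *RNASE2*, *RNASE3* and *CPA3* were the 5 that lay above at both levels of *CD34* where *RUNX1T1* was low, *CLC* at high *CD34* on 10 to 30 reads against 0. These counts describe the sets and carry no test.

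Levels of different genes were compared per transcript length, in the deposited FPKM. With *CD34* and *RUNX1T1* high, *RNASE2* was the highest member at 35.7 to 39.6 FPKM, *RNASE3* came next at 2.59 to 3.49 FPKM and *TPSB2* next at 1.09 to 1.71 FPKM, with ranges that did not meet. With *CD34* high and *RUNX1T1* low the order was *RNASE2* at 173 to 216 FPKM, *PRG2* at 89.3 to 94.2 FPKM, *RNASE3* at 28.9 to 35.7 FPKM and *CPA3* at 3.94 to 4.37 FPKM. With *CD34* low and *RUNX1T1* high, *RNASE2* was again highest at 15.1 to 24.1 FPKM, *CPA3* followed at 7.02 to 9.12 FPKM, and *TPSB2*, *CLC* and *PRG2* followed at 5.68 to 7.11, 5.05 to 6.54 and 3.36 to 5.09 FPKM. Each of these neighbours overlapped the next from *CPA3* down to *PRG2*. With both low the order was *RNASE2* at 185 to 195 FPKM, *CLC* at 114 to 133 FPKM, *CPA3* at 76.8 to 82.2 FPKM and *PRG2* at 47.9 to 50.02 FPKM, with *RNASE3* and *TPSB2* sharing the next place at 9.39 to 10.7 and 8.90 to 10.7 FPKM. *RNASE2* thus headed all 4 sets, and the gene next to it was *RNASE3*, *PRG2*, *CPA3* (overlapping *TPSB2*) and *CLC* in turn.

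**Figure D3:**
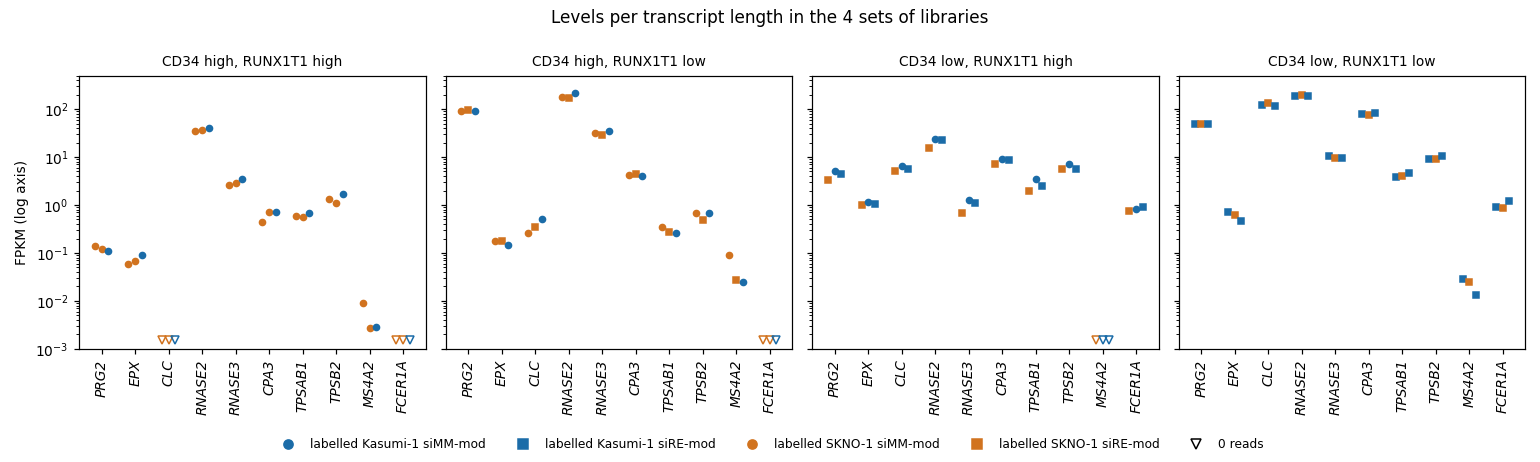
FPKM (log axis) of the 10 genes in the 3 libraries of each set, 1 panel per set; colour gives the labelled line, shape the labelled siRNA and an open triangle 0 reads. RNASE2 is highest in every panel, PRG2 is next to it in the second panel at 89.3 to 94.2 FPKM and CLC in the fourth at 114 to 133 FPKM.

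Regulators of these lineages were read beside the members. *CEBPE*, a C/EBP factor of granulocyte maturation, stood at 13.9 to 19.99 and 71.2 to 145 CPM in the *CD34*-high libraries with *RUNX1T1* high and low, and at 13.4 to 24.9 and 78.9 to 87.8 CPM in the *CD34*-low ones. It lay higher with *RUNX1T1* low and overlapped between *CD34* levels at either level of *RUNX1T1*, as *RNASE2* did with *RUNX1T1* low. *GATA2*, a progenitor and mast cell factor, stood at 30.4 to 35.3, 30.8 to 51.2, 69.2 to 97.9 and 306 to 351 CPM in the 4 sets, so that its *CD34*-high sets overlapped. *GATA1*, the factor of erythroid, mast and eosinophil lineages, stood at 0.0578 to 0.114, 0.128 to 0.328, 0.802 to 0.907 and 2.37 to 2.73 CPM. All 10 lineage regulators on the list had 600 reads. With *CD34* low, 3 lay above and 3 below the *CD34*-high libraries (background 17.5% and 15.6%). *GATA1* had 4 to 22 reads in each *CD34*-high library and met the filter through its *CD34*-low ones, so nothing is read from this count. With *RUNX1T1* low, 5 lay above and 2 below where *CD34* was high (background 18.1% and 20.1%), and 6 above and 1 below where it was low (background 21.7% and 21.6%). *GATA1* was among those above in both. Its *RUNX1T1*-high libraries held 4 to 8 reads each with *CD34* high and 74 to 118 with *CD34* low, so it met the filter through its *RUNX1T1*-low ones. Nothing is read from these counts either. *SPI1*, the myeloid factor PU.1, ran from 76.0 to 197 CPM, and *CEBPA*, the granulocyte lineage factor, from 1.5 to 7.16 CPM.

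*IL5RA*, the alpha chain of the receptor for the eosinophil growth factor IL-5, had 0 to 12 reads in each *CD34*-high library and 3532 to 10420 reads in each *CD34*-low one. Its partner *CSF2RB*, the beta common chain also used by GM-CSF and IL-3, stood at 3.47 to 3.90 and 3.45 to 4.64 CPM in the *CD34*-high sets and at 62.2 to 65.9 and 258 to 290 CPM in the *CD34*-low sets. *IL3RA* and *CSF2RA*, the alpha chains for IL-3 and GM-CSF, reached at most 16.4 and 14.1 CPM. The *CD34*-high libraries with next to no *IL5RA* read thus included the 3 with the highest *PRG2*.

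**Figure D4:**
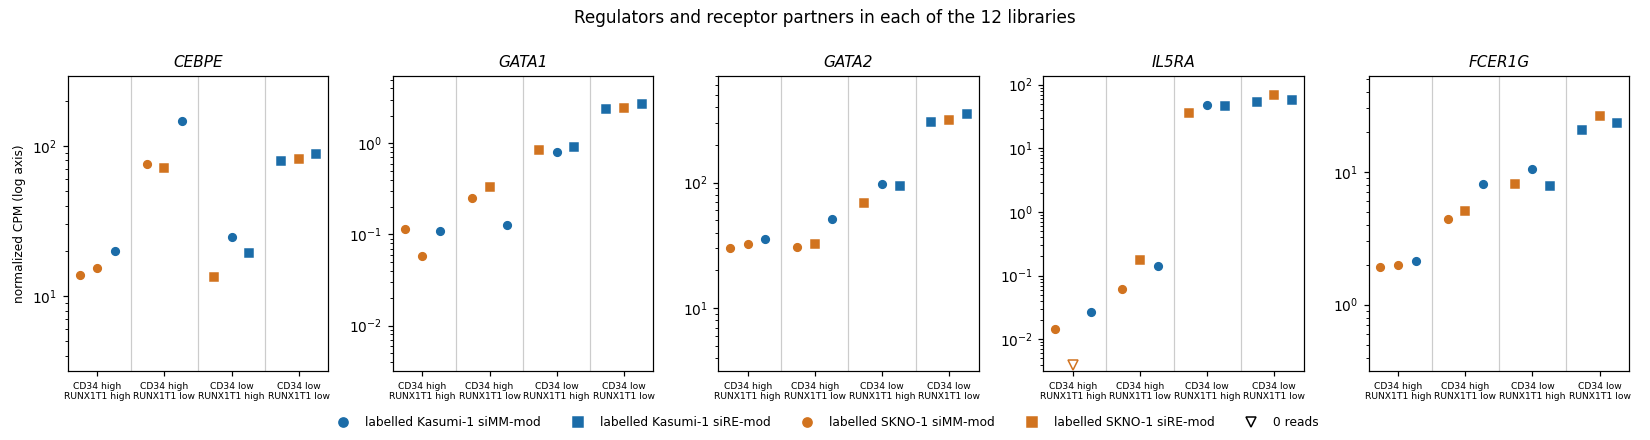
Normalized CPM (log axis, own scale for each gene) of CEBPE, GATA1, GATA2, IL5RA and FCER1G in each of the 12 libraries, in the 4 sets along the x axis, with colour and shape for the labelled line and siRNA and an open triangle for 0 reads. IL5RA has 0 to 12 reads on the left and 3532 to 10420 on the right, and CEBPE is higher in both RUNX1T1-low sets.

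Other genes of the same cells were counted against the same backgrounds. Of the 10 eosinophil genes on the list, 7 had 600 reads. With *CD34* low 3 of them lay above and 1 below (background 17.5% and 15.6%). Those above included *IL5RA* and *PTGDR2*, which met the filter through their *CD34*-low libraries, so nothing is read from this count. With *RUNX1T1* low, 4 lay above and none below at either *CD34* level (background 18.1% and 20.1% with *CD34* high, 21.7% and 21.6% with *CD34* low). *PRG3*, which met the filter through its *RUNX1T1*-low libraries, was among those above at both levels. So was *IL5RA*, with *CD34* high on 4 to 12 reads against 0 to 2. Nothing is read from these counts either. *PTGDR2*, the prostaglandin D2 receptor CRTH2, stood at 0.268 to 0.650 CPM over the *CD34*-high and 8.16 to 13.9 CPM over the *CD34*-low libraries. *LGALS12*, galectin-12, went the other way, at 22.0 to 39.1 and 0.226 to 0.594 CPM. *SMPD3*, a sphingomyelinase, ran from 0.444 to 3.55 CPM. *PRG3*, the homologue of *PRG2*, was singled out after its values were seen: it stood at 0, 1.8 to 2.32, 0.0692 to 0.173 and 0.334 to 0.509 CPM in the 4 sets, in the order of the *PRG2* sets. The surface markers of mature eosinophils *CCR3* and *SIGLEC8* had 18 and 428 reads over the 12 libraries.

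Of the 15 mast cell and basophil genes, 11 had 600 reads. With *CD34* low 5 lay above and 3 below (background 17.5% and 15.6%). Those above included *HDC* and *TPSD1*, which met the filter through their *CD34*-low libraries, so nothing is read from this count. With *RUNX1T1* low, 4 lay above and 2 below where *CD34* was high (background 18.1% and 20.1%), and 7 above and 1 below where it was low (background 21.7% and 21.6%). *HDC*, *IL1RL1* and *ENPP3*, among those above at low *CD34*, met the filter through their *RUNX1T1*-low libraries. *IL1RL1* was also above at high *CD34*, at 0.188 to 0.253 CPM against 0. Nothing is read from these counts either. *KIT*, the stem cell factor receptor that mast cells keep, was at 945 to 999, 682 to 787, 465 to 516 and 97.0 to 126 CPM, lowest where *CPA3* was highest. *HDC*, which makes histamine, reached 4.11 to 5.43 CPM with both low and at most 0.531 CPM elsewhere. *CTSG*, cathepsin G, stood at 112 to 131 and 790 to 1411 CPM in the *CD34*-high sets and at 5.75 to 9.88 and 6.24 to 8.24 CPM in the *CD34*-low ones. *TPSD1*, a further tryptase gene that may share reads with the members, stood at 0.0941 to 0.463 CPM with *CD34* high and 1.56 to 3.40 CPM with *CD34* low. *HPGDS*, the prostaglandin D synthase of mast cells, reached 9.78 to 12.1 CPM with both low and at most 6.10 CPM elsewhere.

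Among 5 granule storage genes, all with 600 reads, *SRGN* encodes serglycin, the proteoglycan to which granule proteases bind. It stood at 43.8 to 54.3, 147 to 192, 159 to 229 and 615 to 860 CPM, highest with both low. *LYST*, a regulator of granule size, stood at 567 to 880 CPM with *CD34* high and 38.6 to 76.1 CPM with *CD34* low. *VAMP8*, a granule fusion protein, ran from 81.7 to 277 CPM, *CD63*, a granule membrane tetraspanin, from 163 to 522 CPM and *NDST2*, a heparin-making enzyme, from 0.568 to 1.79 CPM. With *CD34* low, 3 of the 5 lay below the *CD34*-high libraries and none above (background 15.6% and 17.5%). With *RUNX1T1* low, 2 lay above and none below at high *CD34* (background 18.1% and 20.1%), and 3 above and 1 below at low *CD34* (background 21.7% and 21.6%).

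Markers of other lineages moved with the sets, and their part in the members' levels was not tested. The 9 neutrophil granule markers summed to 12491 to 16164 CPM with *CD34* and *RUNX1T1* high and 16648 to 30553 CPM with *RUNX1T1* low. With *CD34* low the sums were 3775 to 6011 and 1914 to 2199 CPM. Most of each sum was *MPO*, myeloperoxidase, and the late marker *DEFA4* was at 0 and *LTF* had 1 read over the 12 libraries. The 8 erythroid and megakaryocyte markers summed to 2.51 to 3.64 CPM with *CD34* high and 55.0 to 92.7 CPM with *CD34* low. That sum was mostly *ITGA2B*, integrin alpha IIb, while *HBB* and *PF4* had 65 and 0 reads in all. The 6 lymphoid markers summed to 2.18 to 21.7 CPM and were led by *NKG7* or *CD79A*, with *CD3E* at 58 reads.

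By label, the question was whether the granule genes differed between siRE-mod and siMM-mod in each line. The quasi-likelihood test of edgeR, adjusted by Benjamini-Hochberg, called 0 of 13608 genes in Kasumi-1 (0% called, smallest adjusted p 0.252) and 0 of 13628 in SKNO-1 (0%, smallest adjusted p 0.466). At an unadjusted p under 0.05 there were 2435 genes (17.9%) and 1455 genes (10.7%), and DESeq2 called 1163 (8.55%) and 372 (2.73%). The members tested were 8 in each line, since *FCER1A* and *MS4A2* had fewer than 600 reads in either line alone. The median log2 fold change was 0.77 over these 8 and 0.020 over all genes tested in Kasumi-1, and the SKNO-1 medians were 2.05 and 0.027.

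In Kasumi-1, 6 of the 8 had positive values and 2 negative, no member's labelled groups lay apart (background 21.6%), and adjusted p ran from 0.255 to 0.958. *CPA3* was 9.15 ± 8.22 CPM with siMM-mod and 89.9 ± 65.8 CPM with siRE-mod (SD, n = 3 each). Its log2 fold change was 3.31 (SE 1.17, edgeR adjusted p = 0.255), and it was the 1 member that DESeq2 called, at adjusted p = 0.00958. *CLC* had a log2 fold change of 4.80 (SE 2.01, edgeR adjusted p = 0.288) and *PRG2* one of -0.30 (SE 1.90, edgeR adjusted p = 0.936). DESeq2 gave no adjusted p for either. *PRG2* was 67.9 ± 109 CPM with siMM-mod and 55.1 ± 41.4 CPM with siRE-mod, an SD larger than the difference. When the library with the Kasumi-1 siMM-mod 3 label was left out, 4250 of 13200 genes (32.2%) were called. The siMM-mod libraries left were then all *CD34*-high and the siRE-mod ones all *CD34*-low, so siRNA label and *CD34* set cannot be told apart there. Among the genes called were 4 of the 8 members, *EPX*, *CLC*, *TPSAB1* and *TPSB2*. Their log2 fold changes were 2.33, 7.81, 2.67 and 2.52 (edgeR adjusted p = 0.0170, 0.0329, 0.0105 and 0.0105).

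In SKNO-1 all 8 had positive values, and adjusted p ran from 0.466 to 0.993. The labelled groups of 3 members, *EPX*, *CLC* and *CPA3*, lay apart, against 12.1% of all genes. *CPA3* was 3.18 ± 3.47 CPM with siMM-mod and 51.7 ± 71.9 CPM with siRE-mod (SD, n = 3 each), a log2 fold change of 3.98 (SE 1.42, edgeR adjusted p = 0.466). *EPX* had 2.50 (SE 0.81, edgeR adjusted p = 0.466) and *CLC* 9.03 (SE 2.72, edgeR adjusted p = 0.466), the latter against 0, 0 and 10 reads. DESeq2 called *CLC* alone among the members, at adjusted p = 0.0489. When the library with the SKNO-1 siRE-mod 1 label was left out, 2535 of 13119 genes (19.3%) were called. Here too the siMM-mod libraries left were all *CD34*-high and the siRE-mod ones all *CD34*-low, so label and *CD34* set cannot be told apart. Among the genes called were 3 of the 7 members then tested, *CLC*, *TPSAB1* and *TPSB2* at 9.62, 2.44 and 2.68 (edgeR adjusted p = 0.0156, 0.0230 and 0.00832).

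**Figure D5:**
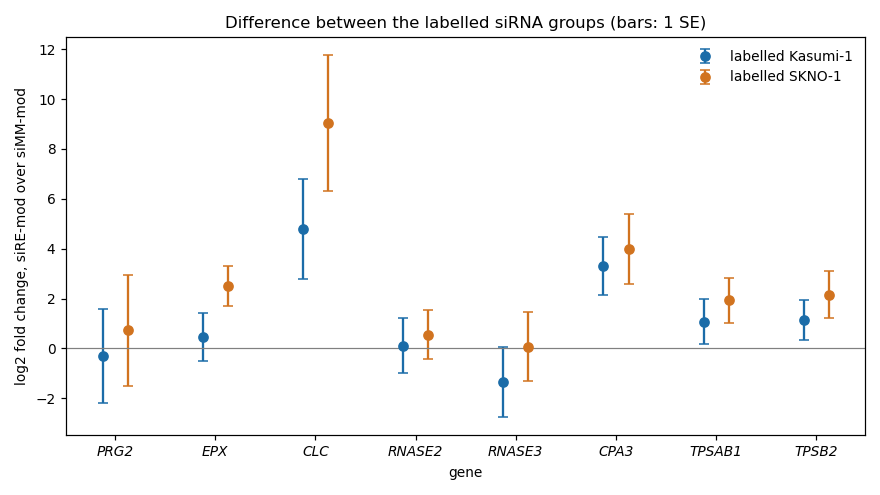
Log2 fold change of siRE-mod over siMM-mod by label (y axis) for the 8 members tested in each line, from edgeR fits of 3 against 3 libraries; bars are 1 SE. CPA3 at 3.31 and 3.98 and CLC at 4.80 and 9.03 are the highest in each line, and no gene passed the adjusted threshold in either line.

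The difference between the lines in the siRNA contrast, and the difference between the lines themselves, were fitted over all 12 libraries, so these fits share libraries with those above. The interaction called 0 of 15863 genes (0%, with 106 genes or 0.668% at an unadjusted p under 0.05 and 118 or 0.744% by DESeq2). All 9 members tested had an adjusted p of 1.00. SKNO-1 against Kasumi-1 also called 0 genes (0%, with 2048 or 12.9% at an unadjusted p under 0.05 and 366 or 2.31% by DESeq2). There 2 members had positive and 7 negative values, with adjusted p from 0.376 to 0.961 and no member's lines apart (background 0.687%). DESeq2 called *FCER1A* in both, a gene with 0 reads in all siMM-mod libraries labelled SKNO-1, whose fitted fold is therefore not given. *PRG2* had a log2 fold change between the lines of 0.15 (SE 1.59, edgeR adjusted p = 0.961) and *CPA3* of -1.16 (SE 0.92, edgeR adjusted p = 0.496).

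For each member with a mean of 1 CPM or more, the genes most like it over the 12 libraries were found among 8853 other genes, by the root mean square difference of centred log2 CPM (0 is an identical pattern). The closest to *PRG2* was *ADGRG5*, an adhesion receptor, at 0.67 log2 units against a spread of *PRG2* itself of 3.64, and next came *VSIR* at 1.72 and *HSH2D* at 1.81. The closest to *RNASE2* were *RHOH* at 0.43 and *CEBPE* at 0.49, with a spread of 1.40. *CPA3* was nearest *CXCR4*, the receptor for CXCL12, at 0.56, *TRGC1* at 0.59 and *LAT2*, a signalling adaptor, at 0.65. *CLC* was nearest *KCNH2*, a potassium channel, at 0.80, with *BTG2* at 1.04 and *BIRC3* at 1.10. *RNASE3* was nearest *NECTIN1* at 0.68 and *EPX* nearest *SAMD9L* at 0.32. Both tryptases were nearest *AL157895.1*, at 0.27 for *TPSAB1* and 0.26 for *TPSB2*. Spreads of *CLC*, *CPA3*, *RNASE3* and *EPX* themselves were 4.35, 2.41, 1.86 and 1.42, and those of *TPSAB1* and *TPSB2* 1.47 and 1.54. The lists for *PRG2*, *CLC* and *CPA3* shared no gene, but with 3 genes in each this says little about how alike the members are.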

How the data were processed

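RNA-seq of 12 Kasumi-1 and SKNO-1 libraries was used, and the in vivo tables were not used here. Per the study's methods and the file headers, the authors trimmed reads with Trim Galore 0.6.5, aligned them with STAR 2.7.10a to GRCh38 and counted exon reads with Subread 1.6.5 (Rsubread 1.32.4 in the headers). Strand and multi-mapping settings are not given in the sources used here. The deposited counts per gene are raw, and the authors also deposited CPM (counts scaled by the reads counted) and FPKM (also per kilobase of exon). From the counts, edgeR 4.0.16 (R 4.3.3) fitted TMM-normalized quasi-likelihood models on genes with at least 600 reads in the fit, with Benjamini-Hochberg adjustment over all genes tested and a threshold of 0.05. DESeq2 1.42.0 was an alternative. Scripts were tested on simulated data with a dispersion (spread between libraries beyond counting noise) of 0.02. The common dispersions fitted here were 0.197 in Kasumi-1, 0.246 in SKNO-1 and 0.241 over the 12 libraries. That test therefore does not tell how large a change these fits could detect. Groups came from the labels. Libraries were also put in order of *CD34*, parted at the widest ratio between neighbours (184 times), and within each part by *RUNX1T1* (2.33 and 3.59 times). "Nearest" ratios are the lowest library of the higher set over the highest of the lower set. The text names all members, the list genes with a mean of at least 1 CPM (at most 6 per list, in list order), *FCER1G*, *IL5RA*, *GATA1*, *GATA2* and *CEBPE*, marker genes near 0 and the 3 most alike genes (log2 CPM with a prior count of 2, genes with a mean of at least 10 CPM). *IL1RL1* and *ENPP3* are named in addition, because of how they met the filter. Paralogue identity came from GENCODE 44 transcripts. Members and lists were chosen with earlier results of these data known. Intervals allowed by a count of 0 cover counting error only.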

Additional observations from a re-analysis of the deposited data

How the results depend on the processing

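No member was called by edgeR with all libraries. With DESeq2 1163 genes were called by label in Kasumi-1, 372 for SKNO-1, 118 as differing in their change and 366 between the lines, and each remaining setting with all libraries gave 0 calls. Leaving out each library in turn gave 0 to 4250 calls in Kasumi-1 (above 0 only without siMM-mod replicate 3), 0 to 2535 in SKNO-1 (only without siRE-mod replicate 1), 0 to 7 between the lines (only without SKNO-1 siRE-mod replicate 3) and 0 for the interaction. In the Kasumi-1 and SKNO-1 cases with calls, the siRNA labels of the libraries left coincided with the *CD34* sets, and the cause was not tested. Log2 fold changes that changed sign ran over the libraries left out, in Kasumi-1, from -0.90 to 3.45 for *PRG2*, -0.031 to 2.33 for *EPX*, -0.35 to 1.78 for *RNASE2* and -1.88 to 1.3 for *RNASE3*. In SKNO-1 they ran from -0.22 to 8.38 for *PRG2* and -1.36 to 2.07 for *RNASE3*. Between the lines they ran from -3.65 to 2.02 for *PRG2*, -0.65 to 0.70 for *RNASE2* and -0.66 to 1.63 for *RNASE3*. For the interaction they ran from -2.67 to 8.67 for *PRG2*, -1.22 to 1.49 for *RNASE2*, -1.22 to 3.38 for *RNASE3*, -1.61 to 2.14 for *CPA3*, -0.75 to 1.40 for *TPSAB1* and -0.39 to 1.57 for *TPSB2*. *EPX* in SKNO-1 fell under 600 reads without any one library and has no such value. Same-numbered libraries did not deviate together from their labelled groups (correlations of -0.27 to -0.013 in Kasumi-1 and -0.25 to -0.021 for SKNO-1). Each labelled group mixes the sets, whose differences enter these deviations, so the check cannot tell whether replicate numbers pair the libraries. With the replicate block 0 genes were called in each comparison, and the sign turned for *PRG2* (2.90) and *RNASE3* (0.36) in Kasumi-1, *RNASE3* in SKNO-1 (-0.62), *CPA3* and *TPSAB1* for the interaction (both -0.13), and *PRG2* (-1.45) and *RNASE3* (-0.23) between the lines. Without the 600-read filter *PRG2* between the lines was -0.071. Of the member values at settings with all libraries, 170 kept their direction and side of the threshold, 8 changed sign as given here, 4 passed the threshold with DESeq2 and 4 had the same direction but no adjusted p from DESeq2. Depth limits *MS4A2*, *FCER1A* and *EPX*, and *CLC* where *CD34* is high.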
